A study of Mus musculus with 6 samples.

Results

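The unfolded protein response and its endoplasmic reticulum (ER) chaperones were followed through 32 genes in MASE2 tumours, compared between mice with estradiol (E2) and mice with placebo. The genes were chosen by name and read from the array through probe sets that the platform annotation assigns to a single gene, taking the probe set with the highest mean over the 6 arrays. All 32 were measured, among 19937 genes in all. They comprised 14 ER chaperones and folding enzymes, 8 genes of ER-associated degradation and of the translocon, 5 stress sensors and transcription factors, and 5 targets of ATF4.

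MASE2 is a line of mouse ascites cells. It came from an E2-treated tgCAG-LS-TAg mouse, in which an adenovirus that expresses Cre, injected under the ovarian bursa, switches on the SV40 large and small T antigens in ovarian surface epithelium (OSE) cells. Both groups therefore carry the same T antigens and derive from a single line whose donor had already received E2. The cells were injected into SCID mice, which lack mature T and B lymphocytes, at the same time as a pellet was implanted. There were 3 tumours from mice with placebo pellets and 3 from mice with E2 pellets, and each was collected when its host lost wellness, with no day or age given in the labels. Host cells are mouse cells too, so the arrays do not separate tumour RNA from host RNA, and in whole tumours fewer cells of a type and less RNA per cell cannot be told apart.

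The ER folds secreted and membrane proteins. When unfolded proteins build up there, the sensors ATF6, IRE1 (encoded by Ern1) and PERK (encoded by Eif2ak3) are activated. Cleaved ATF6 and the XBP1 factor made after IRE1 splices Xbp1 mRNA raise chaperones and degradation factors, while PERK slows translation and favours synthesis of ATF4, which raises amino acid and stress genes. Neither splicing of Xbp1 nor cleavage or phosphorylation of a sensor is measured by these probe sets.

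Values are log2 intensities made with RMA, and a change is E2 minus placebo on that scale. Array medians over the genes lay between 5.26 and 5.41. The array of placebo replicate 3 stood apart, with a Pearson r of 0.857 to 0.865 with the other arrays across genes, against 0.960 to 0.994 among the others. All 12 enterocyte markers and all 11 measured goblet and Paneth cell markers were highest there, with list medians of 10.58 and 10.71 against 4.34 to 4.46 and 4.36 to 4.77 on the other arrays. The 7 measured liver markers had a median of 7.25 there, against 4.09 to 4.42 elsewhere, but were not alike. Apob, Cps1, Hnf4a and Tat measured 10.7, 10.08, 9.42 and 7.25 there, and Ttr and Cyp2e1 4.43 and 6.62. Alb, at 4.12 there, lay below placebo replicates 1 and 2 (4.42 and 4.39). Results are therefore given with all 6 arrays and without placebo replicate 3.

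Markers of other cell types also differed between the groups compared. With 6 arrays, all 12 epithelial and ovarian surface markers had lower means with E2 (median change -1.24 log2). For 7 of the 12 every E2 array lay below every placebo array, beside 11.4% of all genes. Of these Krt7, a simple epithelial keratin, fell by 2.36 on the log2 scale (limma adjusted p = 0.00445). The uroplakins Upk3b and Upk1b differed by -2.75 and -2.55 without passing. Placebo replicate 3 was the highest of the 6 arrays for 6 of the 12 markers. When it was left out, 6 of the 12 fell, beside 5.21% of all genes. In that fit 2 of the 12 had higher means with E2, and the median change was -0.88. Pax8 stayed at 4.86 to 5.52, and Muc16 was below the lower quartile of the genes on 4 arrays. Macrophage markers, relative to placebo replicates 1 and 2, lay at a median of -1.25 log2 in placebo replicate 3 and at -1.15, -1.70 and -1.08 in E2 replicates 1, 2 and 3. Of the 12 macrophage markers 2 fell with 6 arrays and 10 without placebo replicate 3, and of 8 adipocyte markers 1 and 7 fell. Over all genes 0.326% fell with 6 arrays and 5.21% without placebo replicate 3. Without that array 3 of 8 endothelial markers and 5 of 8 fibroblast markers fell too, with 1 fibroblast marker higher. Among secretory cell types, 0 of 8 plasma cell markers changed with 6 arrays, with Jchain below the lower quartile on all 6 arrays and Sdc1 at 6.81 to 7.48. Of 7 pancreatic acinar markers (median change -0.03 log2) Cpb1 and Cel lay below that quartile on all 6 arrays. Cpa1, Cela1, Cela2a and Ctrb1 differed by -0.11, -0.02, -0.03 and 0.26 log2, and none of them passed. Cela3b alone rose, from 4.82 to 4.91 with placebo to 5.87 to 6.61 with E2 (1.38 log2, limma adjusted p = 0.0347). The part of any of these cell types in the values of the 32 genes was not tested.

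None of the 32 genes passed the limma test with all 6 arrays (adjusted p under 0.05 over all genes, against which 1.06% of all genes were higher and 0.326% lower). At an unadjusted limma p under 0.05, 8 of the 32 were higher (25%) and 0 lower, beside 10.4% of all genes higher and 6.16% lower. Means were higher with E2 for 28 of the 32, beside 48.3% of all genes, and the median change was 0.17 log2, beside -0.01. Signal strength moved with this: 31 of the 32 lay above the median signal of all genes, a comparison chosen after the values were seen. Of the genes above that median, here called bright, 67.4% had higher means with E2, 17.9% were higher at an unadjusted p under 0.05, 1.77% at an adjusted one, and the median change was 0.14 log2.

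The groups were also compared by whether they overlapped. Every E2 array lay above every placebo array for 8 of the 32 genes, or 25%, beside 14.9% of all genes and 25.1% of bright genes. The share of the 32 was thus close to that of other bright genes. The reverse separation was seen for 0 of the 32, beside the 11.4% of all genes and 7% of bright genes. Without placebo replicate 3 every E2 array lay above the remaining placebo arrays for 19 of the 32, or 59.4%, beside 21.2% of all genes and 33.1% of bright genes, and below them for Ddit3 alone, beside 20.4% of all genes. In that fit 6 of the 32 rose and 0 fell, or 18.8%, beside 6.4% of all genes called higher, 5.21% called lower, and 11.3% of bright genes called higher. With 3 samples against 3 an exact permutation test of a single gene cannot go below p = 0.10.

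**Figure D1:**
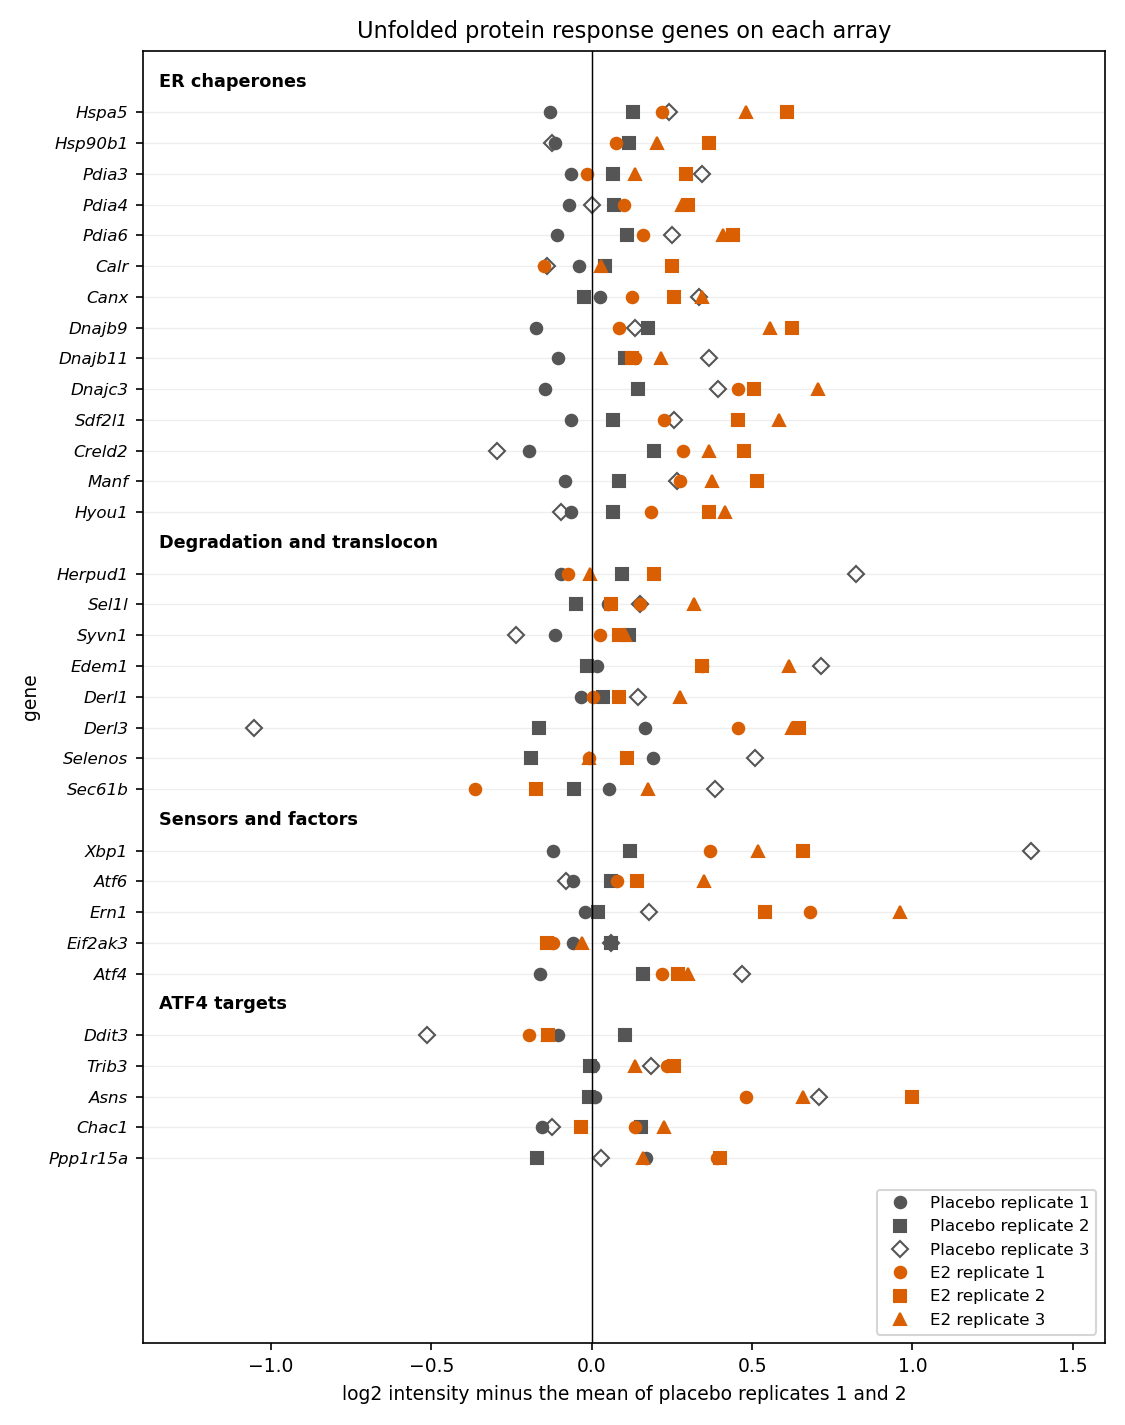
Each row is 1 of the 32 genes and each point 1 array, plotted as log2 intensity minus the mean of placebo replicates 1 and 2, with placebo in grey (open diamonds for placebo replicate 3) and E2 in orange. The E2 points of Ern1 and Derl3 lie to the right of all placebo points, while Xbp1, Herpud1 and Edem1 have placebo replicate 3 farthest to the right.

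The 14 ER chaperones were higher on average in the E2 tumours, each by a small amount. All 14 means were higher with E2, with changes from 0.03 log2 (Pdia3) to 0.47 log2 (Creld2) and a median of 0.28, and 0 of the 14 passed the test over all genes. Higher means were found for 67.4% of bright genes. For 5 of the 14 (35.7%; Pdia4, Dnajc3, Creld2, Manf and Hyou1) every E2 array lay above every placebo array, beside 14.9% of all genes and 25.1% of bright genes. Without placebo replicate 3 the median was 0.33, all 14 means were again higher and Dnajc3 alone passed. In that comparison 10 of the 14 (71.4%) were separated, beside 21.2% of all genes and 33.1% of bright genes. When the arrays were quantile normalized a further time, Pdia3 and Dnajb11 changed sign and the median of the 14 was 0.18.

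The promoters of several chaperones carry the ER stress response element (ERSE), the sequence through which ATF6, with the factor NF-Y, is known to act. Windows from 250 bases before to 50 after the start site, from RefSeq on GRCm38.p6, were found for 28 of the 32 genes. The element was searched as CCAAT, 9 bases of any kind and CCACG, on both strands, and 9 of the 28 genes held it, beside 39 of 32851 windows (0.119%). They were 7 chaperones (Hspa5, Hsp90b1, Pdia6, Calr, Canx, Dnajc3 and Creld2) and 2 degradation genes (Syvn1 and Derl3). The stretches below show the element in the genes whose values are described next, so that the same letters can be set beside unequal changes. Capitals mark its CCAAT and CCACG ends, which read ATTGG and CGTGG where it lies in reverse, and each stretch is on the strand of its gene.
Hspa5 (chr2:34771995-34772073, plus strand): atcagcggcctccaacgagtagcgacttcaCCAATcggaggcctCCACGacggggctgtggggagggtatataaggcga
Hsp90b1 (chr10:86705608-86705686, minus strand, farther copy): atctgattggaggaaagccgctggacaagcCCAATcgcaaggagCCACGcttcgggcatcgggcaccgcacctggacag
Hsp90b1 (chr10:86705503-86705581, minus strand, nearer copy): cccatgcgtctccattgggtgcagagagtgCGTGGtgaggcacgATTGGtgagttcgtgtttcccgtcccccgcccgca
Dnajc3 (chr14:118937797-118937875, plus strand): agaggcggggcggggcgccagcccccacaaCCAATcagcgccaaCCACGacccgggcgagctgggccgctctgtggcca
Creld2 (chr15:88819490-88819568, plus strand): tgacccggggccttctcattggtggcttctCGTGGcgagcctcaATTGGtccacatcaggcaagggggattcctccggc
Pdia6 (chr12:17266461-17266539, plus strand): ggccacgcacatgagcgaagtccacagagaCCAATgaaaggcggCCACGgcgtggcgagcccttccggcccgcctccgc
Calr (chr8:84847045-84847123, minus strand): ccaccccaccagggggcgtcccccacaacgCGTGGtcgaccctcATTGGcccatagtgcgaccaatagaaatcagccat
Canx (chr11:50325770-50325848, minus strand): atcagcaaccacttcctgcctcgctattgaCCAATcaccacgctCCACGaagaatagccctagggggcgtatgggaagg
Derl3 (chr10:75893212-75893290, plus strand): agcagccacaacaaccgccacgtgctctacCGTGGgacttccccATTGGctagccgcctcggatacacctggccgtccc
Syvn1 (chr19:6046502-6046575, plus strand): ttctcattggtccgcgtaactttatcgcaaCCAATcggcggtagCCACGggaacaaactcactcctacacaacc

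All 10 copies lie before the start site, from 212 to 194 bases before it for the farther copy of Hsp90b1 to 44 to 26 bases before it for Syvn1. The 9 genes with the element had changes from 0.09 log2 (Calr) to 0.93 log2 (Derl3), all above 0, with a median of 0.25. The 19 other members with a window had a median of 0.13, and 15 of them had higher means with E2. The median among bright genes was 0.14. The 2 sets also differ in branch, as 7 of the 9 are chaperones. The chaperones among the 19, Pdia3, Pdia4, Dnajb9, Dnajb11 and Sdf2l1, differed by 0.03, 0.23, 0.38, 0.04 and 0.33. Whether the element goes with the size of the change was not tested. Outside the 32, 12 measured genes hold the same element, among them Ero1b of a further list described below. Of the 12, 8 had higher means with E2 and 0 passed the test. Their median was 0.14, the same as among bright genes, with changes from -0.97 to 0.78 (Ero1b). Without placebo replicate 3 the medians of the 9, the 19 and the 12 genes were 0.33, 0.21 and 0.18, beside 0.06 among bright genes.

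The related ERSE-II, searched as ATTGG, 1 base of any kind and CCACG on both strands, shares the CCACG end. It was found in 12 windows (0.0365%), among them those of Herpud1 and Dnajb11. The Herpud1 copy is shown because this gene, in contrast to most chaperones, was not higher with E2.
Herpud1 (chr8:94386347-94386417, plus strand): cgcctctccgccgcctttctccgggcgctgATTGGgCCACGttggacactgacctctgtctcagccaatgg
For XBP1 the form TGACGTGG (0.676% of windows) and for ATF4 the form TGATGNAAT (0.965% of windows) were also searched on both strands. They were found in 0 of the 28 windows, which says only that these letters are not in these stretches. Other forms of these motifs were not searched.

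Hspa5 encodes BiP, the main Hsp70 chaperone of the ER and the usual marker of the response. It measured 9.84, 10.10 and 10.21 in placebo replicates 1, 2 and 3 and 10.19, 10.58 and 10.45 in E2 replicates 1, 2 and 3. The lowest E2 tumour thus lay just under the highest placebo tumour, and the groups overlapped by that pair alone. Its mean was 10.05 ± 0.19 with placebo and 10.41 ± 0.20 with E2 (SD, n = 3), a difference of 0.36 log2 (SE 0.15, limma adjusted p = 0.304). Leaving out placebo replicate 3 gave 0.44 (adjusted p = 0.0889).

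Dnajc3 encodes p58IPK, an ER co-chaperone that assists BiP. It measured 8.24, 8.53 and 8.78 with placebo and 8.84, 8.89 and 9.09 with E2, so that the groups did not overlap. The difference was 0.42 log2 (SE 0.16, limma adjusted p = 0.265) with 6 arrays. It rose 1.47-fold, or by 0.56 log2 units, once placebo replicate 3, the highest placebo value, was left out (SE 0.12, adjusted p = 0.0264).

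Creld2, an ER protein with disulphide exchange activity, had the largest change of the chaperones on 6 arrays. Its values were 7.54, 7.93 and 7.44 with placebo and 8.02, 8.21 and 8.10 with E2, with no overlap. The difference of 0.47 log2 (SE 0.15, limma adjusted p = 0.205) became 0.37 without placebo replicate 3, the lowest placebo tumour here. Hyou1, a large Hsp70-related chaperone and exchange factor for BiP, had the smallest p of the 14 (unadjusted p = 0.0109, adjusted p = 0.162). It measured 8.34, 8.47 and 8.31 with placebo and 8.59, 8.77 and 8.82 with E2, a difference of 0.36 log2 (SE 0.10).

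Manf, a secreted protein retained in the ER that binds BiP, measured 7.55, 7.72 and 7.90 with placebo and 7.91, 8.15 and 8.01 with E2. The groups were only just separated, and the difference was 0.31 log2 (limma adjusted p = 0.291). Sdf2l1, which works with ER Hsp40 proteins, differed by 0.33 log2 and Dnajb9, an Hsp40 known to restrain IRE1, by 0.38, both with overlapping groups. In the fit of 5 arrays that leaves out placebo replicate 3, Manf and Sdf2l1 differed by 0.39 and 0.42 and missed the threshold (adjusted p = 0.0579 and 0.0683).

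The disulphide isomerases and the lectin chaperones were less alike. Pdia4 and Pdia6 differed by 0.23 and 0.25 log2, and Hsp90b1, the ER form of Hsp90, by 0.25. Pdia3, the isomerase that works with the lectin chaperones calreticulin and calnexin, differed by 0.03 (95% confidence interval -0.32 to 0.37). Calr and Canx, which encode those lectins, differed by 0.09 (interval -0.21 to 0.39) and 0.13 (interval -0.18 to 0.44), and Dnajb11, an Hsp40 of the BiP cycle, by 0.04 (interval -0.28 to 0.36). Whether these genes differ from Hspa5 or Hyou1 in their response was not tested. For Pdia4 a second, dim probe set (mean 4.38) differed by -0.02.

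The chaperones also varied within each group in step. Placebo replicate 2 lay above placebo replicate 1 in 13 of the 14 chaperones, by a median of 0.18 log2, beside 0.02 over all genes and 54.0% of genes. E2 replicate 1 was the lowest E2 tumour in 13 of the 14, a share not counted over all genes. E2 replicate 2 lay above E2 replicate 1 in 13 of the 14, beside 7898 of the 19937 genes. None of these orders was counted among bright genes. The median position of the 14 genes, relative to placebo replicates 1 and 2, was 0.25 in placebo replicate 3 and 0.15, 0.40 and 0.37 in E2 replicates 1, 2 and 3. By the mean in place of the median these positions were 0.14 in placebo replicate 3 and 0.16, 0.40 and 0.36 in the E2 tumours. Placebo replicate 3 was thus above E2 replicate 1 by the median and below it by the mean, and it was the highest of the 6 arrays for 2 of the 14 genes and the lowest for 3. The macrophage markers given above were low on the same 4 arrays, and their part was not tested. The distance between the E2 tumours was about as large as the difference between the groups.

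**Figure D2:**
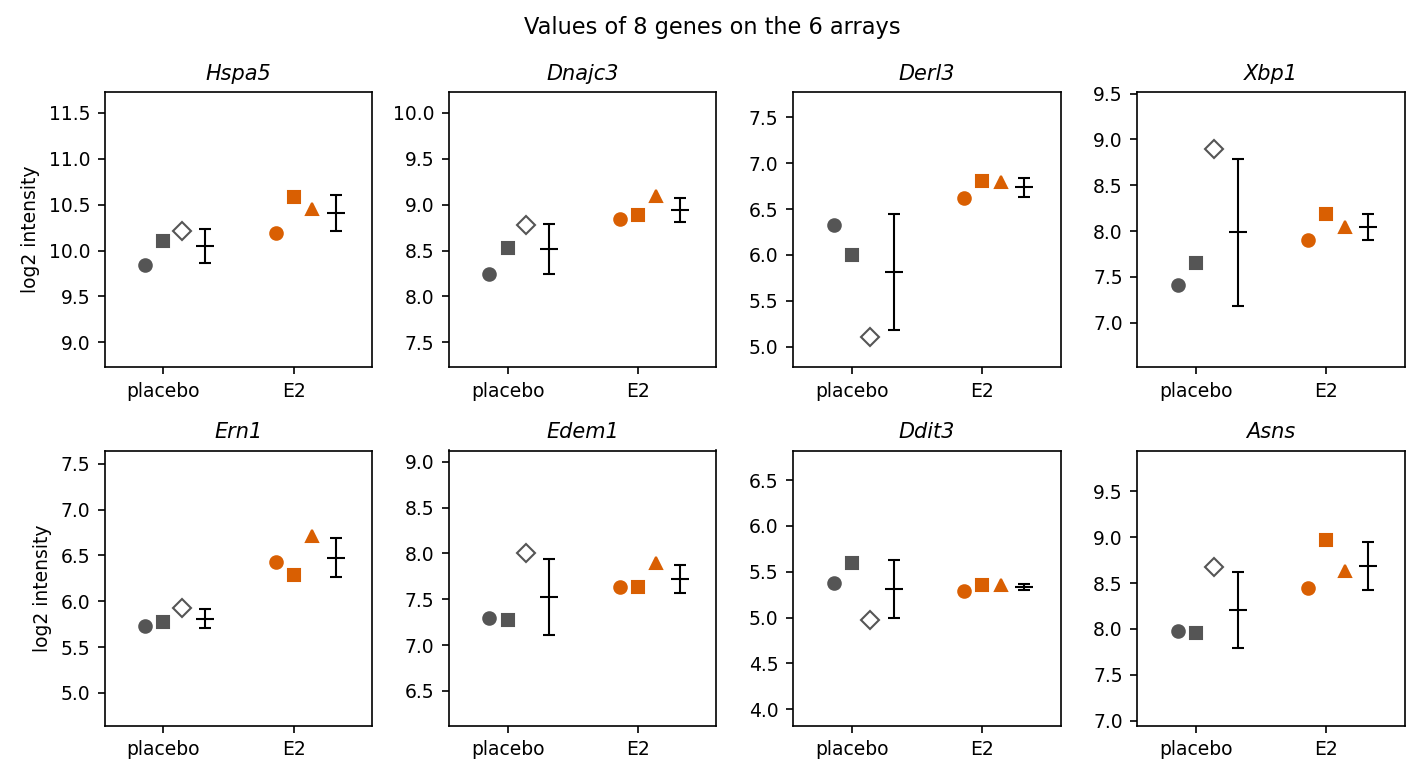
Log2 intensity of 8 genes in placebo (grey, open diamond for placebo replicate 3) and E2 tumours (orange), with the mean and SD of each group (n = 3) as the bar to the right of its points. All panels span the same range of log2 units. Ern1 separates the groups, Xbp1 has its highest value, 8.90, in placebo replicate 3, and Derl3 has its lowest, 5.11, there.

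The genes of ER-associated degradation and the translocon did not move together. This pathway draws misfolded proteins back out of the ER for destruction by the proteasome. Means were higher with E2 for 5 of the 8, with a median change of 0.10 log2, and 0 passed the test with 6 arrays. A further quantile normalization put the median at -0.03 and gave Derl1 the other sign. The median was also 0.10 without placebo replicate 3, when Derl3 and Edem1 rose, but 0.06 without placebo replicate 1 and 0.03 without E2 replicate 3.

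Derl3, a derlin of the retrotranslocation channel that is typical of secretory cells, had the largest change of the 32 genes with 6 arrays. It measured 6.33, 6.0 and 5.11 with placebo and 6.62, 6.81 and 6.79 with E2, with no overlap. Its mean was 5.81 ± 0.63 with placebo and 6.74 ± 0.11 with E2 (SD, n = 3), and the difference of 0.93 log2, 1.9-fold, missed the threshold (SE 0.31, limma adjusted p = 0.222). The low value of placebo replicate 3 widened both the difference and its error. With that array left out, Derl3 was 0.58 log2 units higher and passed (SE 0.12, adjusted p = 0.0234), less than the changes of Ern1 (0.73) and Asns (0.71) in that fit.

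Edem1, a lectin that hands misfolded glycoproteins to the degradation machinery, measured 7.30, 7.27 and 8.0 with placebo and 7.63, 7.63 and 7.90 with E2. Its change went from 0.19 log2 with 6 arrays (limma adjusted p = 0.678) to 0.43 without placebo replicate 3 (adjusted p = 0.0472). Herpud1, which organises the degradation complex at the ER membrane, behaved otherwise. It measured 7.33, 7.52 and 8.25 with placebo and 7.35, 7.62 and 7.42 with E2, a difference of -0.24 that became 0.04 without placebo replicate 3.

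Sel1l and Syvn1, the adaptor and the ubiquitin ligase of the main degradation complex, differed by 0.13 and 0.15 log2 with overlapping groups. Derl1, another derlin, differed by 0.07, and Selenos, a selenoprotein that links derlins to the extracting ATPase, by -0.14. Sec61b, a subunit of the channel through which proteins enter the ER, differed by -0.25 (95% confidence interval -0.69 to 0.19). The 3 probe sets of Sec61b differed by -0.25, -0.01 and -0.10, the last of them dimmer than the lower quartile on all 6 arrays, so its value is uncertain.

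Among the sensors and factors, Ern1 stood nearest to a call. Ern1 encodes IRE1 alpha, the kinase and nuclease that splices Xbp1 mRNA. It measured 5.73, 5.77 and 5.93 with placebo and 6.43, 6.29 and 6.71 with E2, and every E2 tumour lay above every placebo tumour. Its mean went from 5.81 ± 0.11 to 6.48 ± 0.22 (SD, n = 3), a difference of 0.67 log2 or 1.59-fold (SE 0.13, 95% confidence interval 0.34 to 0.99). This was the smallest p of the 32 genes (unadjusted p = 0.00246) and missed the threshold over all genes (limma adjusted p = 0.0847). Ern1 rose by 0.73 without placebo replicate 3 (adjusted p = 0.0123), and without any other single array it was not called while its change stayed between 0.55 and 0.76.

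Xbp1, the factor whose mRNA IRE1 splices, turned on 1 tumour. It measured 7.41, 7.65 and 8.90 with placebo and 7.90, 8.19 and 8.05 with E2, so that placebo replicate 3 exceeded all others. With 6 arrays the change was 0.06 log2 (95% confidence interval -0.89 to 1.01, limma adjusted p = 0.952). Xbp1 rose without placebo replicate 3 by 0.52 (SE 0.12, adjusted p = 0.0323), and without other single arrays its change reached -0.23. The same array held the high intestinal markers given above, and their part in the Xbp1 value was not tested.

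The other sensors changed little. Atf6 measured 7.03, 7.15 and 7.01 with placebo and 7.17, 7.23 and 7.44 with E2, separated but by 0.22 log2 only (limma adjusted p = 0.369). Eif2ak3, which encodes PERK, was one of the 4 members with a lower mean in E2 tumours (-0.12, 95% confidence interval -0.32 to 0.09). Atf4 measured 6.22, 6.54 and 6.85 with placebo and 6.60, 6.65 and 6.68 with E2, a difference of 0.11 that became 0.26 without placebo replicate 3 (adjusted p = 0.201). ATF4 is controlled mainly at translation, which these arrays do not measure. For the 5 sensors and factors the median change was 0.11 log2. It was 0.26 without placebo replicate 3, -0.05 without placebo replicate 1 and -0.01 after a further quantile normalization, when Xbp1 and Atf4 changed sign.

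The 5 ATF4 targets gave no called gene with 6 arrays and no separated one. All 5 means were higher with E2, with changes from 0.02 to 0.48 log2 and a median of 0.15. Ddit3 encodes CHOP, the factor tied to cell death under lasting ER stress and the second marker of this set. It measured 5.38, 5.59 and 4.97 with placebo and 5.29, 5.35 and 5.35 with E2, a difference of 0.02 (95% confidence interval -0.39 to 0.42, limma adjusted p = 0.972). Without placebo replicate 3 every E2 tumour lay below both remaining placebo tumours, a difference of -0.16 that did not pass the test (adjusted p = 0.398). The interval still allows changes of up to about the size seen for Hspa5, in either direction.

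Asns, asparagine synthetase, measured 7.98, 7.96 and 8.68 with placebo and 8.45, 8.97 and 8.63 with E2. It differed by 0.48 log2 with 6 arrays (SE 0.24, limma adjusted p = 0.384) and rose by 0.71, or 1.64-fold, without placebo replicate 3 (SE 0.15, adjusted p = 0.0202). Ppp1r15a, which encodes GADD34, the phosphatase subunit that restores translation, differed by 0.30 (adjusted p = 0.303). Trib3, a pseudokinase, and Chac1, which degrades glutathione, each differed by 0.15. Neither passed without placebo replicate 3 (0.21 and 0.10, adjusted p = 0.207 and 0.707).

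**Figure D3:**
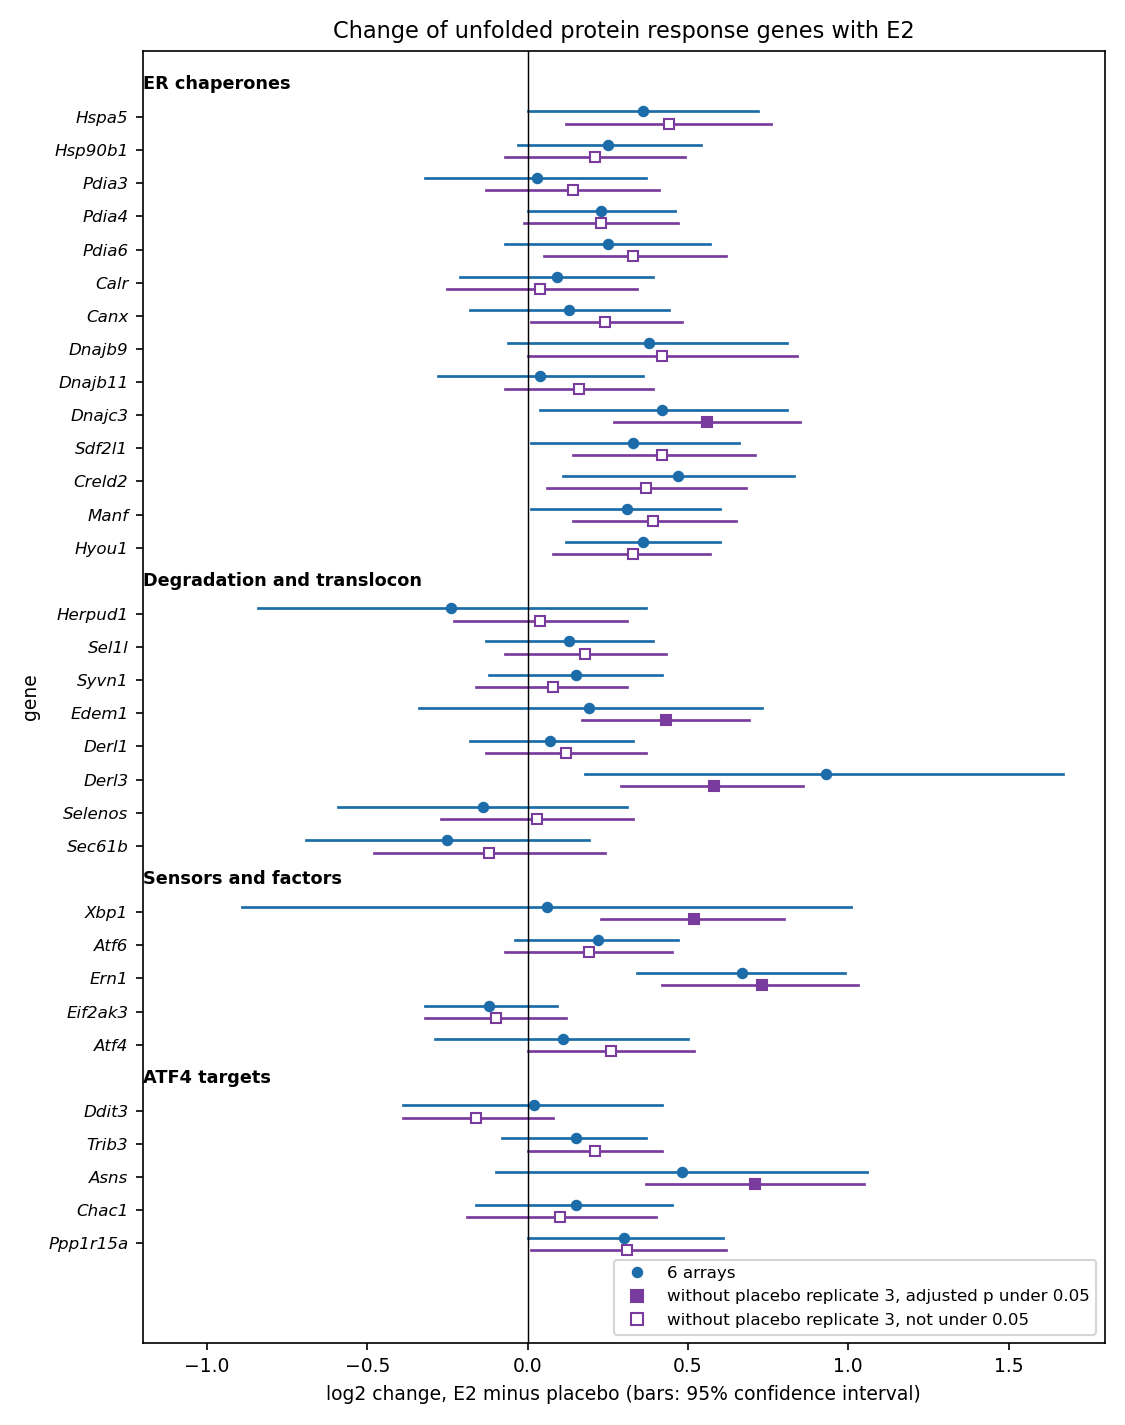
Log2 change (E2 minus placebo) of the 32 genes with 95% confidence intervals, from all 6 arrays (blue) and without placebo replicate 3 (purple, filled where the limma adjusted p is under 0.05). None passed with 6 arrays, and Dnajc3, Edem1, Derl3, Xbp1, Ern1 and Asns passed without placebo replicate 3.

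The rest of the pathway was described through 5 further lists without any of the 32 genes, in which 116 of 127 genes were measured. In these, 4 genes rose and 0 fell with 6 arrays, beside 1.06% and 0.326% of all genes and 1.77% of bright genes that rose. Leaving out placebo replicate 3 gave 18 rises and 2 falls, beside 6.4% and 5.21% of all genes and 11.3% of bright genes that rose. Means were higher with E2 for 85 of the 116, beside 48.3% of all genes and 67.4% of bright genes, and the median change was 0.19 log2, beside 0.14 among bright genes.

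Of the 21 other ER folding enzymes, 19 had higher means with E2 and the median change was 0.31 log2. Upward separation was found for 14 (66.7%), beside 14.9% of all genes and 25.1% of bright genes. At an unadjusted p under 0.05, 11 (52.4%) were higher, beside 10.4% of all genes and 17.9% of bright genes, and 0 passed over all genes. Ero1b, an oxidase that recharges the disulphide isomerases, measured 6.12, 6.15 and 5.41 with placebo and 6.63, 6.66 and 6.76 with E2. Its difference of 0.78 log2 had an unadjusted limma p of 0.00981 with 6 arrays, and it rose by 0.54 without placebo replicate 3 (adjusted p = 0.00889). Hspa13, a microsomal Hsp70, and Fkbp11, a prolyl isomerase, differed by 0.72 and 0.44 log2 and also rose without that array. Ero1a and Txndc11 rose there too, which made 5 of the 21 (23.8%), beside 6.4% of all genes and 11.3% of bright genes. In that fit the median change of the 21 was 0.24 log2, beside 0.06 among bright genes. Ero1a is also known to respond to hypoxia. It measured 6.96, 7.0 and 8.55 with placebo against 7.89, 8.32 and 8.22 with E2, so its rise of 1.16 log2 rests on leaving out placebo replicate 3 (adjusted p = 0.00176), and with 6 arrays the groups overlapped.

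In the list of translocation, glycosylation and ER export (27 genes, median 0.14 log2, or 0.22 without placebo replicate 3 and 0.07 without placebo replicate 2) 1 gene rose with 6 arrays. Ssr3, a subunit of the translocon-associated complex, measured 8.96, 9.08 and 9.10 with placebo and 10.02, 10.15 and 10.15 with E2. It rose 2.08-fold, or by 1.05 log2 units (SE 0.09, higher in 3 of 3 E2 tumours), and the change lay between 1.01 and 1.10 whichever array was left out. The call was lost without E2 replicate 1, 2 or 3 (limma adjusted p = 0.0622, 0.0644 and 0.0656), when 31, 37 and 37 genes in all were called higher. Kdelr3, a receptor that returns escaped chaperones to the ER, differed by 0.78 log2 with separated groups and rose without placebo replicate 3 (0.86, adjusted p = 0.00889). Spcs1, of the signal peptidase, differed by 0.47.

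The list of other ATF4 and amino acid response genes (31 genes, median 0.26 log2) held the remaining 3 rises. These were 9.68% of the list, beside 1.06% of all genes and 1.77% of bright genes. Shmt2, the mitochondrial serine hydroxymethyltransferase, rose by 0.79 on the log2 scale, from 7.04, 7.19 and 7.08 to 7.79, 8.01 and 7.88. Vldlr, a lipoprotein receptor, rose by 1.54, from 5.62, 6.53 and 6.24 to 7.56, 7.61 and 7.84. Cebpb, a transcription factor that pairs with ATF4, rose by 0.56, from 6.81, 6.75 and 6.96 to 7.43, 7.43 and 7.36. The calls of Vldlr and Cebpb were narrow (limma adjusted p = 0.0483 and 0.0488, against 0.025 for Shmt2). After a further quantile normalization Vldlr and Cebpb were not called, and with a trended and robust variance Shmt2 and Cebpb were not. Each E2 replicate left out ended all 3 calls, placebo replicate 1 left out ended all 3 as well, and placebo replicate 2 left out ended that of Cebpb. Over the 6 fits with 1 array left out the changes stayed between 0.74 and 0.84 for Shmt2, 1.29 and 1.74 for Vldlr and 0.52 and 0.62 for Cebpb. Genes called higher in all fell to 62 without placebo replicate 1 and 170 without placebo replicate 2, from 211.

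Other genes of that list went different ways. In the fit without placebo replicate 3, 7 of the 31 rose (22.6%) and 2 fell. Over all genes 6.4% rose and 5.21% fell in that fit, and 11.3% of bright genes rose. The rises included Sars and Gars, which charge transfer RNAs with serine and glycine, Slc7a5, an amino acid transporter, and Eif4ebp1, a translation repressor. The falls were Atf3, a stress factor downstream of ATF4, and Phgdh, the first enzyme of serine synthesis. Atf3 measured 6.01, 6.08 and 6.16 with placebo and 5.61, 5.41 and 5.60 with E2, a difference of -0.54 with 6 arrays that missed the threshold, and fell by 0.51 without placebo replicate 3 (adjusted p = 0.0172).

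The last 2 lists gave no call with 6 arrays. Among 19 other degradation genes, 13 (68.4%) had higher means with E2, beside 67.4% of bright genes. The median was 0.12 log2, or 0.03 without placebo replicate 1 and 0.08 without E2 replicate 3. Upward separation was found for 6 of the 19 (31.6%), beside 14.9% of all genes and 25.1% of bright genes. Without placebo replicate 3, 3 of the 19 rose (15.8%), beside 6.4% of all genes and 11.3% of bright genes. Erlec1 and Faf2, which act in substrate recognition and extraction, differed by 0.36 and 0.43 with separated groups. Both rose without placebo replicate 3, as did Edem3. Nploc4, a partner of the extracting ATPase, differed by 0.53. Among 18 other sensors and ER transcription factors, 10 means were higher and the median was 0.13. It was 0.05 without placebo replicate 2, 0.03 without E2 replicate 3 and 0.05 without placebo replicate 3, when Bcl2l11 alone passed. Eif2ak2, the kinase PKR, differed by 0.39, the death receptor gene Tnfrsf10b by 0.41 and Creb3l1, a membrane-bound factor related to ATF6, by -0.60.

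**Figure D4:**
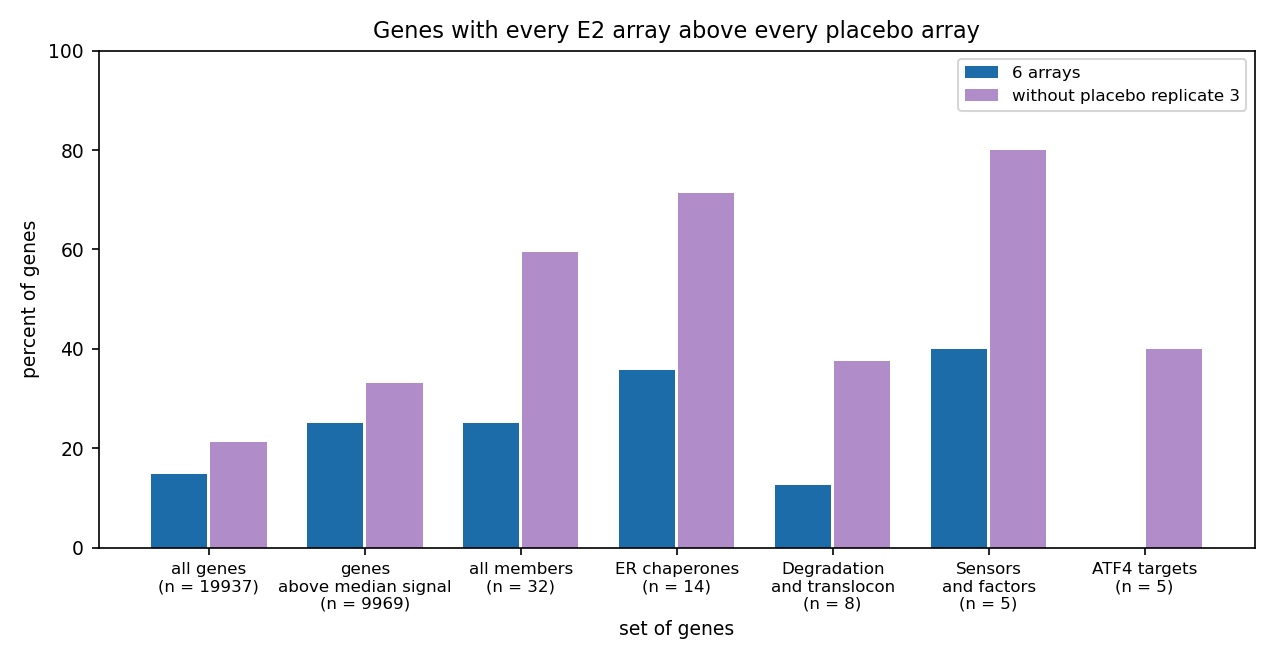
Percent of genes in each set with every E2 array above every placebo array, with all 6 arrays (blue) and without placebo replicate 3 (purple, E2 against placebo replicates 1 and 2). The 32 genes stand at 25% and 59.4%, beside 14.9% and 21.2% of all genes and 25.1% and 33.1% of the genes above the median signal.

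As a check of the labels, Greb1, the gene of the series title and a known oestrogen target, was at 4.87 to 5.39 with placebo and 8.42 to 8.53 with E2. Its difference was 3.41 log2, against 0.93 for Derl3, the largest among the 32 genes with 6 arrays, and 0.73 for Ern1, the largest without placebo replicate 3.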

How the data were processed

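RNA of 6 MASE2 tumours was hybridised to whole-transcript arrays, 1 per tumour. The authors deposited log2 intensities for 34760 probe sets. The submitters' processing notes name RMA, without its software or version. RMA equalises the distributions of the arrays, so RNA of another tissue in 1 sample can shift other genes on that array. Groups and replicate numbers came from the sample titles.

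Probe sets with 1 gene symbol (21640) were reduced to the brightest per gene, giving 19937 genes, with no filter. E2 and placebo were compared with limma 3.58.1 in R 4.3.3 (lmFit and eBayes, two-sided, Benjamini-Hochberg over all genes, adjusted p under 0.05). Each p-value reflects the spread between tumours of a group. The members and lists were chosen with earlier results of these data known, so lists are described by counts and medians only. Named were all members and, from each further list, the 3 genes of smallest p and any called gene. Ero1a, Txndc11, Edem3, Bcl2l11, Atf3, Sars, Gars, Slc7a5, Eif4ebp1 and Phgdh were chosen after their values were seen. So were the liver markers, the pancreatic acinar markers and the cell type markers Krt7, Upk3b, Upk1b, Pax8, Muc16, Jchain and Sdc1. On simulated data for this comparison with 19937 genes, limma found 61.0% of the genes changed by 1 log2 unit. It found 86.0% of those changed by 2 in the same run, with 12 false calls. The 32 genes changed by 0.93 log2 at most, so these shares do not give what would be found at their sizes. Same-numbered tumours were not paired in the main fit, as the titles give replicate numbers alone. Their deviations from the group means correlated at -0.029, -0.182 and -0.130. Placebo replicate 3 enters each placebo mean, so these values cannot decide whether tumours were paired.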

Additional observations from a re-analysis of the deposited data

How the results depend on the processing

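Of the 32 genes, 23 kept their sign in all 13 other fits; Xbp1, Pdia3, Calr, Dnajb11, Herpud1, Derl1, Selenos, Atf4 and Ddit3 did not. The count of members that rose, 0 with 6 arrays, was 2 (Dnajc3 and Ern1) with array weights, 1 (Ern1) at an adjusted p under 0.10 and 0 to 6 when single arrays were left out. The replicate number as a block gave 0 rises among the 32 and 0 in the 5 further lists, and 10 rises and 0 falls over all genes, against 211 and 65. Rises in the further lists, 4 with 6 arrays, numbered 2 after repeated quantile normalization, 2 with a trended and robust variance, 15 with array weights and 0 to 18 with single arrays left out. Falls there, 0 with 6 arrays, numbered 1 with array weights, 1 at an adjusted p under 0.10 and 0 to 2 with single arrays left out. Members separated upwards, 8 with 6 arrays, numbered 5 after repeated quantile normalization and 8 to 19 with single arrays left out; those separated downwards numbered 1 and 0 to 2. The median of the ATF4 targets, 0.15 log2, was 0.19 after median centring and 0.12 to 0.22 with single arrays left out. Over all genes, 342 rose and 80 fell after median centring, 1026 and 760 with array weights, and 31 to 1276 and 0 to 1039 with single arrays left out. The causes were not tested. With 3 tumours a group, the intervals of most members still allow changes of the size seen for Hspa5, 0.36 log2.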
